A study of Mus musculus with 11 samples.

Results

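GY118F is a chimeric cytokine receptor with the extracellular, ligand-binding portion of the receptor for granulocyte colony-stimulating factor (G-CSF) and the cytoplasmic portion of gp130, with the tyrosine that recruits the phosphatase Shp2 replaced. The response to 3 hours of G-CSF in mouse epiblast stem cells (EpiSCs) that carry this transgene was measured on 5 of the 11 Illumina arrays of the study: 2 arrays of stimulated cells and 3 arrays of unstimulated cells, chosen by their labels and compared over all 15718 probes. EpiSCs are pluripotent cells that resemble the epithelium of the embryo after implantation. All cells were of strain 129xMF1 and were kept in N2B27 medium with Activin and Fgf, so both factors were also present in the unstimulated cells and in the controls. The other 6 arrays held control EpiSCs without the transgene, 3 unstimulated and 3 given G-CSF for 3 hours, and serve here to test which changes differed between the lines. The sources used here give neither the promoter of the transgene nor the number of clones, and they do not say that replicates were separate cultures. The p-values therefore reflect the spread among these arrays, some or all of which may be technical.

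Cytokine receptors that use gp130 activate JAK kinases, which phosphorylate receptor tyrosines and the transcription factor STAT3. STAT3 then enters the nucleus, binds short palindromic DNA elements and raises its own gene together with the gene of its feedback inhibitor Socs3. In mouse pluripotent cells this pathway is known for maintaining naive embryonic stem cells, while EpiSCs depend on Activin and FGF signalling.

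The scale of the deposited values resembles log2, and a change is the mean of the stimulated arrays minus the mean of the unstimulated arrays, given in log2 units. The sources used here do not say whether it is a plain log2. The arrays had been brought to 1 common distribution before deposit, so a change of the total amount of RNA is no longer in the values. Across probes, the 5 arrays correlated at r = 0.994 to 0.997 within the 2 groups and at 0.972 to 0.981 between them. Unstimulated array 3 lay farthest from its group, with a root mean square deviation of 0.0881 and 5 probes more than 1 unit from the group's median, among them Lefty1 and Nodal. The 10 measured EpiSC markers, Pou5f1, Nanog, Sox2, Otx2, Fgf5, Cdh1, Cldn6, Zic2, Tdgf1 and Dnmt3b, had a mean value of 9.42 to 9.60 on the unstimulated and 9.69 to 9.77 on the stimulated arrays, and none of them was in the dim class when probes were split into 3 classes of equal size by mean value. Marker lists of naive embryonic stem cells (3 measured), fibroblasts (4), haematopoietic cells (2), trophoblast (5), endoderm (5) and endothelium (1) averaged 7.41 to 7.97 on every GY118F array, near the dim end of the range, and 3 neural progenitor markers averaged 8.51 to 8.63. The dim class ended at a probe mean of 7.76. Fibroblast markers averaged 7.88 to 7.97, with 2 of 4 in the dim class, and trophoblast markers 7.85 to 7.92, with 3 of 5. In bulk RNA, fewer cells of a type and less RNA per cell cannot be told apart.

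Most of the called changes were small. A probe is called here where limma's Benjamini-Hochberg adjusted p over all probes was below 0.05. After G-CSF 2766 probes were higher (17.6%) and 3070 lower (19.5%), which is 37.1% of all probes. The median probe moved by -0.0016, and the median absolute change was 0.126, beside a median SD within groups of 0.0689. Of the 5836 called probes 2258 (38.7%) moved by less than 1.2-fold, whereas 596 rose (3.79%) and 551 fell (3.51%) by at least 1.4-fold. Only the tails were large: 90 probes rose and 52 fell more than 2-fold, and 11 rose and 4 fell more than 4-fold. The stimulated and unstimulated arrays did not overlap for 56.0% of all probes, and 5804 of the 5836 called probes were among these. Without stimulated array 3 the fit called 2196 probes lower, and without stimulated array 2 it called 2163 higher.

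**Figure D1:**
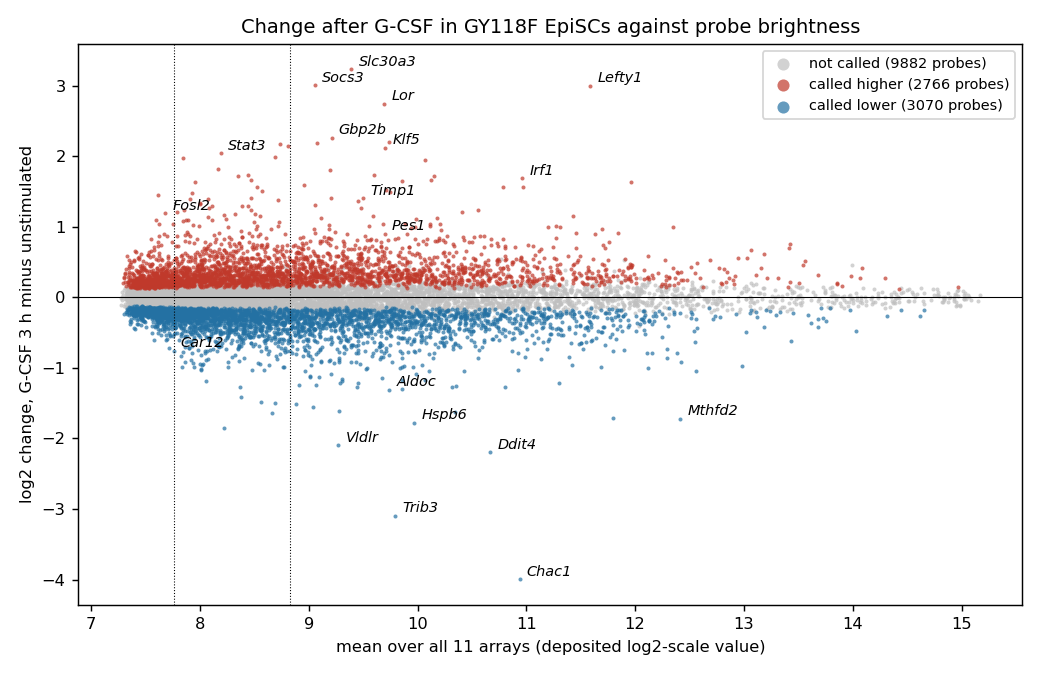
Change after G-CSF in GY118F EpiSCs (vertical axis, log2 units, stimulated minus unstimulated mean) against the mean of each probe over all 11 arrays (horizontal axis, deposited log2-scale value) for 15718 probes. Colours mark the 2766 probes called higher and the 3070 called lower, and dotted lines separate the 3 brightness classes. Called changes of at least 1.4-fold were fewest in the dim class, at 1.05% of its probes.

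With 1 probe kept per gene symbol, that with the highest mean, 1692 of 9201 genes were called higher (18.4%) and 2109 lower (22.9%), and the median change was -0.01. In control EpiSCs, which lack the transgene, 1832 genes were called higher (19.9%) and 2204 lower (24.0%) after G-CSF. The labels name no mock-treated arrays, so within a line G-CSF and the handling that came with it cannot be told apart. The difference between the G-CSF effects of the lines was called upward for 358 genes (3.89%) and downward for 201 (2.18%). Each gene list below is read beside these shares. Counts of 3 or fewer members in 1 direction could move by 1 or 2, or to 0, with an array left out, and larger counts that moved by over 1.5 times are given with the value.

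Components and inhibitors of the receptor pathway moved in both directions. Socs3, which blocks gp130 signalling, was at 8.96, 8.94 and 8.98 on the unstimulated arrays and 11.99 and 11.94 on the stimulated ones. Arrays within a group lay close together and far from the other group, a rise of 3.00 ± 0.05 (SE) with a limma adjusted p of 4.69e-13. In control EpiSCs Socs3 moved by -0.17, and the difference of the G-CSF effects was 3.18 (limma adjusted p = 1.87e-11). Stat3, at 7.92, 7.84 and 7.83 on the unstimulated arrays and 9.73 and 10.08 on the stimulated ones, rose by 2.04 ± 0.09 (SE), and its other probes gave 1.82 and 1.09. The further inhibitors Socs2 and Socs5 rose by 1.56 and 0.72, beside control changes of 0.79 and 0.07. Gab1, an adaptor that acts with Shp2, fell by 0.43, the phosphatase Ptpn6 by 0.32 and the STAT inhibitor Pias4 by 0.30. In the list of gp130 and JAK-STAT pathway genes 9 of 25 measured members rose and 4 fell, with a median change of 0.10. In control EpiSCs 3 of the 25 rose and 8 fell. The difference was called upward for 5 and downward for 0, so no fall in this list was called larger than in control EpiSCs. Of 24 early targets of STAT3, 18 rose, 1 fell (Cebpd, by 0.54) and the median was 0.59. The difference from control was called upward for 16 of them, and for 15 to 18 with 1 array left out.

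Promoter windows of 3 genes are shown because they hold the spaced half-sites TTCNNNGAA of a STAT element ahead of genes that rose. They are read on the gene's strand from RefSeq (GRCm38.p6), end at or before the transcription start, and carry the match in capitals.
Socs3, chr11:117969472-117969560, minus strand: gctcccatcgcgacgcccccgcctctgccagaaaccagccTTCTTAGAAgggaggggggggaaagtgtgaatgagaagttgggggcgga
Irf1, chr11:53769884-53769972, plus strand: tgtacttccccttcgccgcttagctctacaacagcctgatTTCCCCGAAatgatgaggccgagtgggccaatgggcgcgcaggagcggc
Icam1, chr9:21015858-21015939, plus strand: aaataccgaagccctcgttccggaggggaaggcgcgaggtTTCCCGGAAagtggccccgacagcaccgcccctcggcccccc
In the Socs3 window the match begins 154 bases before the start, in that of Irf1, an interferon-regulatory transcription factor, 90 bases before it, and in that of Icam1, an adhesion receptor for leukocytes, 42 bases before it. Irf1 rose by 1.69 ± 0.14 (SE) and Icam1 by 0.87 ± 0.05 (SE). Windows of 250 bases before to 50 after the start were at hand for 7498 measured genes, and 599 of these (7.99%) held TTCNNNGAA on either strand, as did 8.3% of all 32851 promoters. The share was 41 of 315 (13%) among genes called higher by at least 1.4-fold and 26 of 330 (7.88%) among those called lower by as much. Among the rises that also exceeded the control's response it was 19 of 107 (17.8%). Numbered zinc finger protein genes gave much the same share, 25 of 142 (17.6%). Of 176 such genes 29 were called higher (16.5%), and the difference from control was called upward for 1. In the list of early STAT3 targets 8 of 18 promoters held it: those of Socs3, Irf1, Zfp36, Icam1, Tnfrsf1a and Cish, which rose, and those of Bcl6 and Sbno2, whose changes of 0.02 and 0.09 were not called. A match of letters is a description and not a binding site.

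**Figure D2:**
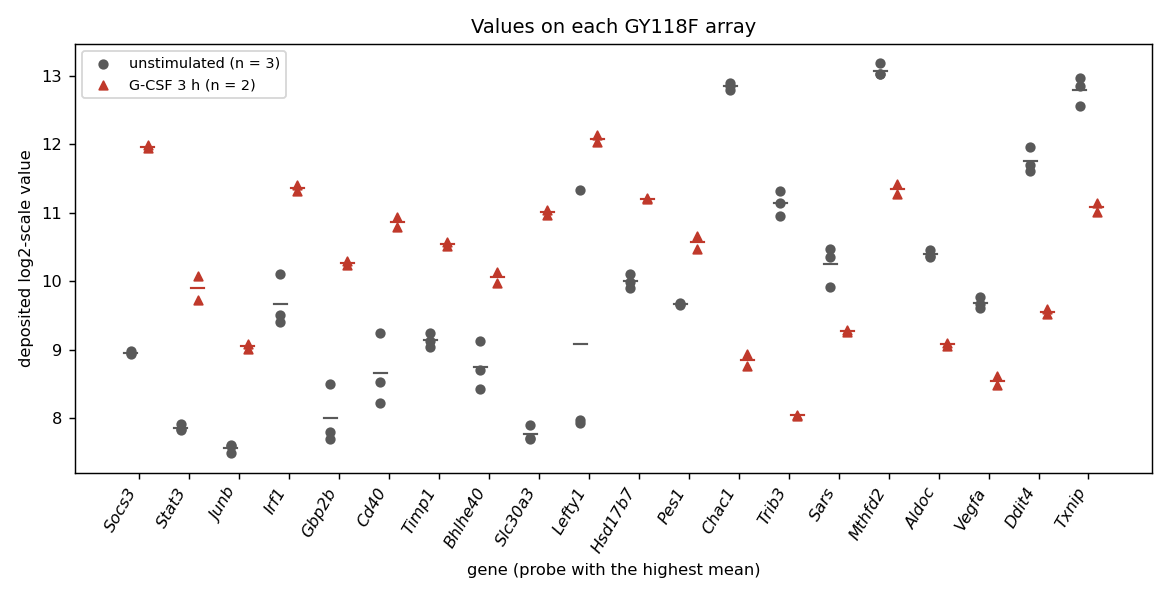
Deposited log2-scale values (vertical axis) of 20 genes on each GY118F array, with circles for the 3 unstimulated arrays, triangles for the 2 arrays of cells given G-CSF and bars for the means. The groups of each gene do not overlap, which also holds for 56.0% of all probes and for 5804 of the 5836 called ones. For Lefty1 unstimulated array 3 lies at 11.34, far above the other unstimulated arrays.

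Interferon-inducible guanylate-binding genes formed another group. Gbp2b, a GTPase of cell-autonomous immunity, was at 7.81, 7.70 and 8.50 on the unstimulated arrays and 10.24 and 10.29 on the stimulated ones and rose by 2.26 ± 0.17 (SE). Gbp2 rose by 1.94, Gbp3 by 1.29 and the immunity-related GTPase Igtp by 0.64. In control EpiSCs the changes of these genes were 0.11, 0.02, 0.46 and -0.71. The ubiquitin-like Isg15 rose by 0.36, a call lost where values below the 25th percentile were set to it (change 0.03, limma adjusted p = 0.685). By contrast Ifit3, Rsad2 and Usp18, which type I interferon induces, stood at 0.03, 0.01 and 0.02 without a call, and Ifit2 fell by 0.20, a call lost without unstimulated array 2 or stimulated array 3 (limma adjusted p of 0.0643 and 0.155) and with that floor (-0.03, limma adjusted p = 0.811). In all, 8 of 17 measured interferon-inducible genes rose and 1 fell (median 0.16), while 2 rose and 7 fell in control EpiSCs. The difference between the lines was called upward for 9 of the 17, beside 3.89% of all genes.

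The promoters of the GTPases are shown for the element TTCNNTTTC, part of the sites to which interferon-regulatory factors bind, again with matches in capitals on the gene's strand; in Igtp and Irgm1 they read as the reverse complement.
Gbp2b, chr3:142594671-142594759, plus strand: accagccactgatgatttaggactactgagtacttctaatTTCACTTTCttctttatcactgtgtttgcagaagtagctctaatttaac
Gbp2, chr3:142620565-142620653, plus strand: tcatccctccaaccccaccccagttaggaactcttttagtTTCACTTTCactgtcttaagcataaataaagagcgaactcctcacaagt
Igtp, chr11:58199482-58199555, plus strand: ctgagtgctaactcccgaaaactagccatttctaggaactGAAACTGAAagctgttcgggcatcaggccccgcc
Irgm1, chr11:48871421-48871490, minus strand: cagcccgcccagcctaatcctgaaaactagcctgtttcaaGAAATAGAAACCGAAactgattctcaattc
This element was in 12 of 16 promoters of the interferon list, in 599 of 7498 measured genes (7.99%) and in 31 of the 315 genes that rose by at least 1.4-fold (9.84%). The 12 included genes that rose, Gbp2b, Gbp2, Gbp3, Igtp, Irgm1 and Isg15, and genes without a rise, such as Rsad2 and Ifit3. Of these, Irgm1 rose by 0.42 in GY118F EpiSCs and changed by 0.42 in control EpiSCs as well.

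Cd40, a receptor of the tumour necrosis factor family, was at 8.53, 8.23 and 9.25 on the unstimulated arrays and 10.94 and 10.79 on the stimulated ones and rose by 2.20 ± 0.20 (SE), the TWEAK receptor Tnfrsf12a by 1.59 and the TNF receptor Tnfrsf1a by 0.62. The NF-κB subunit Rela rose by 0.55. Nfkbia, the feedback inhibitor of NF-κB, stood at -0.01, and of 13 NF-κB pathway genes 6 rose and 1 fell (Birc2, by 0.42; list median 0.08). In the list of antigen presentation and immunoproteasome genes 5 of 13 rose and the others were not called (median 0.05). The immunoproteasome subunits Psmb10 and Psmb8 rose by 0.83 and 0.61, the chaperones Calr and Pdia3 by 0.46 and 0.39 and the peptide transporter subunit Tap2 by 0.27, whereas Psmb9 (0.05), the class I genes H2-K1 (-0.07) and H2-D1 (-0.11) and B2m (-0.06) were not called. The call of Tap2 was lost without unstimulated array 1, unstimulated array 2, stimulated array 2 or stimulated array 3 (limma adjusted p of 0.0936, 0.0707, 0.11 and 0.0815) and in a fit of the 5 GY118F arrays alone (limma adjusted p = 0.0537). Among 23 constitutive proteasome subunits 2 rose (1 without unstimulated array 2, control unstimulated array 3 or control stimulated array 2) and the other members were not called. With stimulated array 2 or 3 or control stimulated array 2 or 3 left out, 1 or 2 subunits were called lower.

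Transcription factors of other families held further large rises. Klf5, a Krüppel-like factor that sustains naive embryonic stem cells, was at 9.19, 9.02 and 9.32 on the unstimulated arrays and 11.33 and 11.25 on the stimulated ones and rose by 2.12 ± 0.08 (SE), against 0.43 in control EpiSCs (difference 1.69, limma adjusted p = 9.97e-07). Tfap2c, a factor of trophoblast and germ cells, was at 8.53, 8.54 and 8.42 on the unstimulated arrays and 10.55 and 10.42 on the stimulated ones and rose by 1.99 ± 0.06 (SE), against 0.95 in the controls (difference 1.05, limma adjusted p = 3.15e-06). For both genes each stimulated array lay above every unstimulated one, and the groups did not overlap for 56.0% of all probes. Sp5, a target of WNT signalling, was at 7.90, 8.07 and 8.41 on the unstimulated arrays and 10.29 and 10.35 on the stimulated ones and rose by 2.19 ± 0.12 (SE). It changed by 1.87 in control EpiSCs, and the difference was not called (limma adjusted p = 0.373). Of 12 Krüppel-like and SP factors 5 rose and 3 fell (median 0.09). In the list of immediate early AP-1 and EGR genes 8 of 17 rose and 4 fell (2 without stimulated array 2 or 3; median 0.08). Egr3 rose by 1.74, beside 1.35 in control EpiSCs, and the AP-1 subunits Junb and Fos by 1.48 and 1.34, beside -0.13 and 0.47. Btg1, which restrains proliferation, fell by 0.88.

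The largest falls lay in the integrated stress response, in which the transcription factor Atf4 raises genes of amino acid supply when amino acids or protein folding fail. Chac1, which degrades glutathione, was at 12.85, 12.90 and 12.79 on the unstimulated arrays and 8.94 and 8.76 on the stimulated ones and fell by 3.99 ± 0.06 (SE) (limma adjusted p = 4.51e-13). Trib3, an Atf4-induced pseudokinase, was at 11.31, 11.15 and 10.95 on the unstimulated arrays and 8.05 and 8.04 on the stimulated ones and fell by 3.09 ± 0.08 (SE). Of 22 measured effectors of Atf4 and Chop 19 fell and 1 rose, with a median of -0.84. Ddit4, an inhibitor of mTORC1 signalling, fell by 2.20 and Stc2, a secreted glycoprotein, by 1.52. Atf4 itself fell by 0.99, Ddit3, which encodes Chop, by 1.41, and the lipoprotein receptor Vldlr by 2.10. Sqstm1, an autophagy receptor, rose by 0.35. In control EpiSCs 19 of the 22 fell and 1 rose. There Ddit4 changed by -2.27, Vldlr by -2.26, Ddit3 by -1.52 and Atf4 by -1.24. Chac1 changed by -4.96 and Trib3 by -3.64, and for both the fall was smaller in GY118F EpiSCs (difference 0.96, limma adjusted p = 1.89e-05, and 0.55, limma adjusted p = 0.00867).

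The element TTGCATCA, to which Atf4 binds with C/EBP partners, is shown in 4 promoters of genes that fell.
Chac1, chr2:119351009-119351096, plus strand: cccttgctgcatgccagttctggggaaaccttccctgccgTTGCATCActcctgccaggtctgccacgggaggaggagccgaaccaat
Vldlr, chr19:27216780-27216867, plus strand: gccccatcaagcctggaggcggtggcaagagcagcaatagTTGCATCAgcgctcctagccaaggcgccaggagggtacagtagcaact
Atf3, chr1:191183396-191183483, minus strand: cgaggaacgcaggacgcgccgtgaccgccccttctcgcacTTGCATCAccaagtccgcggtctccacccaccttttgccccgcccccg
Aars, chr8:111033690-111033777, plus strand: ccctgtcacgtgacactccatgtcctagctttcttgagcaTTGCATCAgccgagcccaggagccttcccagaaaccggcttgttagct
It was rare, with 59 of 7498 measured genes (0.787%) and 0.895% of all promoters. Among genes called lower by at least 1.4-fold 11 of 330 held it (3.33%), and among those called higher by as much 1 of 315 (0.317%). It was in 6 of 18 promoters of the Atf4 list and in 4 of 14 promoters of the tRNA synthetases. Holders without a call in these lists were Slc7a11, Yars and Tars. Among amino acid transporters 3 of 10 promoters held it, and in the list of serine, one-carbon and amino acid synthesis 0 of 14.

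Amino acid synthesis, transport and tRNA charging fell in parts. Mthfd2, the mitochondrial folate enzyme, was at 13.18, 13.02 and 13.03 on the unstimulated arrays and 11.42 and 11.28 on the stimulated ones and fell by 1.72 ± 0.07 (SE), and its other probe gave -1.27. Gpt2, which makes alanine, fell by 1.56, the proline enzyme Aldh18a1 by 1.00, the asparagine synthetase Asns by 0.97 and the serine enzymes Psat1 and Phgdh by 0.78 and 0.65. The cytosolic folate enzymes Mthfd1 (0.13) and Shmt1 (-0.01) were not called. In the list of serine, one-carbon and amino acid synthesis 9 of 16 fell and the other members were not called (median -0.44). In control EpiSCs 8 of the 16 fell and 2 rose. Limma called the difference between the lines for 0 of them, and 4 reached an unadjusted p below 0.05. Among amino acid transporters 6 of 13 fell and the others were not called (median -0.14), led by the glycine carrier Slc6a9 (-1.26) and the alanine and serine carrier Slc1a4 (-1.16). Slc7a11, the cystine carrier that Atf4 is known to induce, stood at -0.09 without a call. In control EpiSCs 7 of the 13 transporters fell and 1 rose, and the difference was called upward for 1.

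Of 21 cytosolic aminoacyl-tRNA synthetase genes 11 fell and 3 rose, with a median of -0.24. Sars, which charges the serine tRNA, was at 10.47, 10.35 and 9.92 on the unstimulated arrays and 9.30 and 9.26 on the stimulated ones and fell by 0.97 ± 0.12 (SE). Mars1 fell by 0.61, Nars by 0.60, Aars by 0.56 and Cars by 0.52. The synthetases Hars (0.06), Yars (-0.02), Wars (-0.05) and Kars (-0.08) were not called, and Rars and the scaffold subunit Aimp2 rose by 0.30 and 0.40. The difference from control was called by limma for 0 of the 21, and 1 reached an unadjusted p below 0.05.

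Chaperones of the endoplasmic reticulum, another branch of the folding stress response, moved the other way from the Atf4 list. Xbp1, the transcription factor of this branch, was at 10.64, 10.71 and 10.69 on the unstimulated arrays and 11.46 and 11.44 on the stimulated ones and rose by 0.77 ± 0.07 (SE), while in control EpiSCs it changed by -0.21 (difference 0.98, limma adjusted p = 2.35e-05). Of 20 list members 12 rose, among them Creld2 (0.59), the co-chaperone Dnajc3 (0.52) and calreticulin, Calr (0.46). The median was 0.26. Herpud1, which serves protein degradation at this membrane, was the 1 member that fell, by 1.26, against -2.31 in control EpiSCs. In control EpiSCs 7 of the 20 rose and 2 fell. In the cytosol 5 of 25 chaperones rose (20%) and 3 fell (12%), beside 18.4% and 22.9% of all genes, and the list median was 0.14. Hspa8 stood at 0.52, and the small heat shock protein Hspb6 fell by 1.78. In control EpiSCs 10 of the 25 rose and 3 fell.

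**Figure D3:**
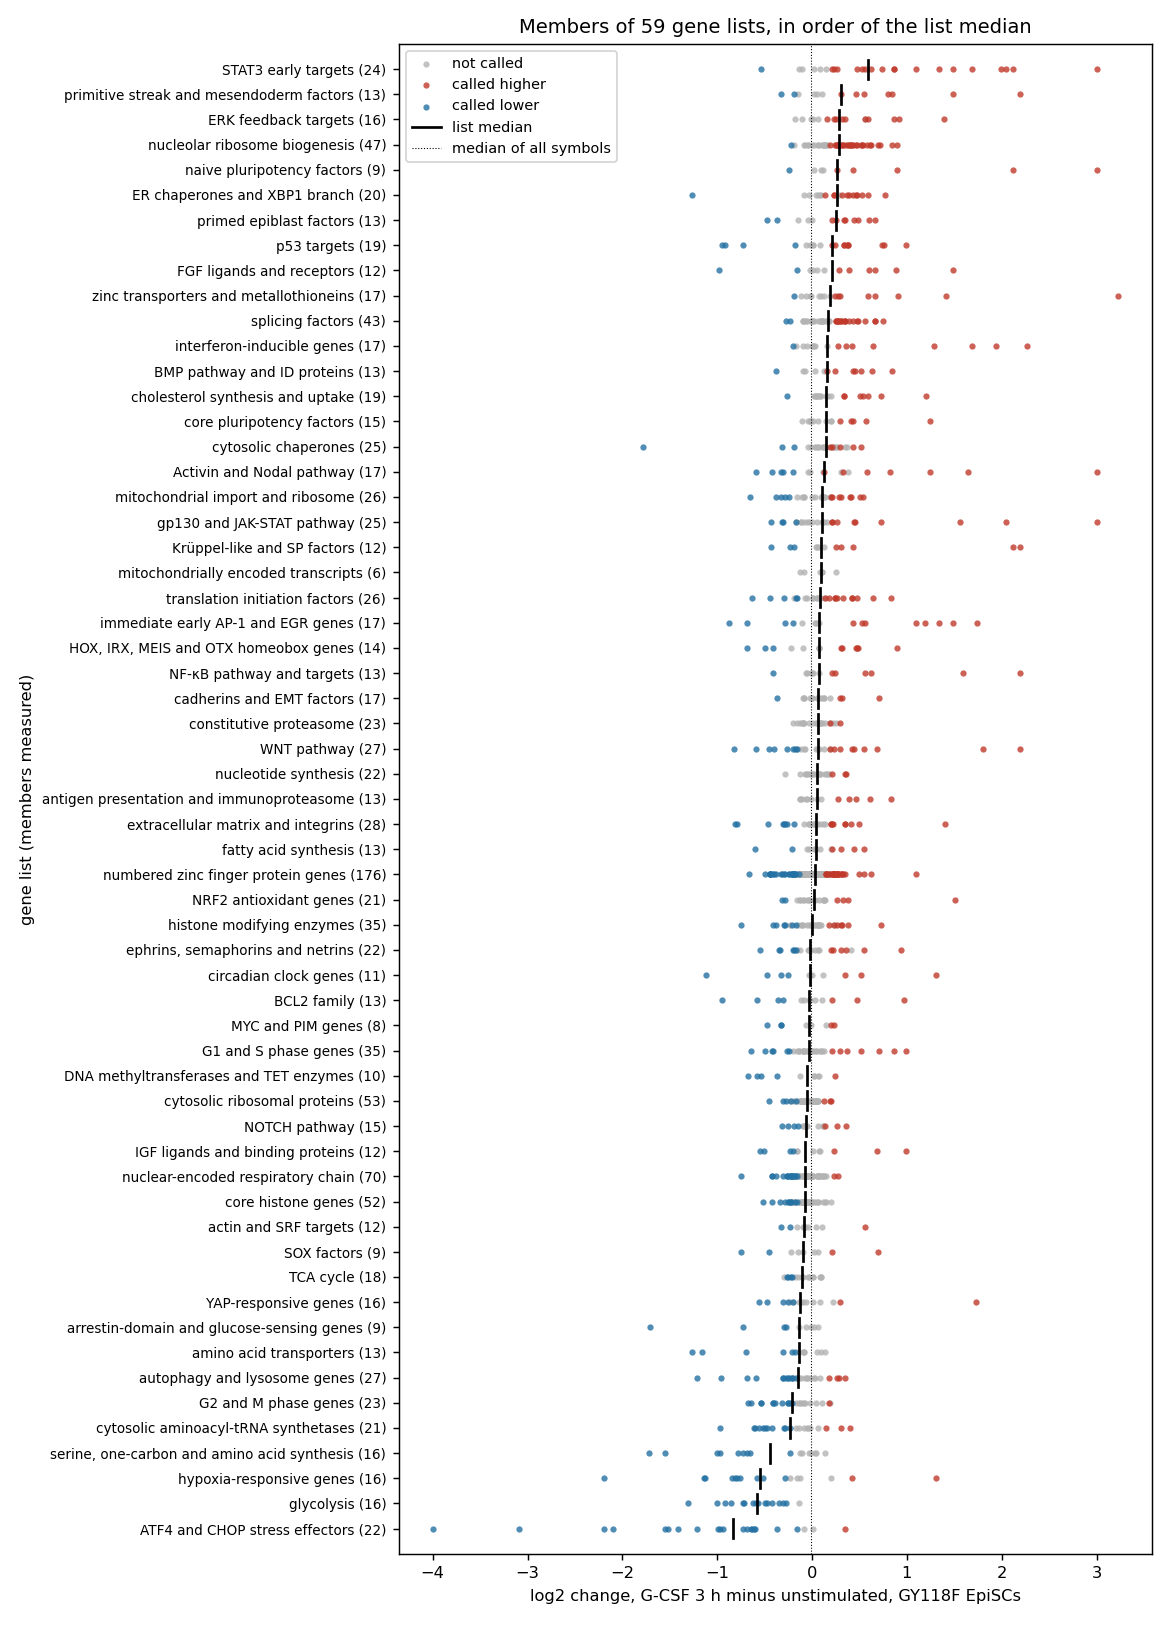
Change after G-CSF in GY118F EpiSCs (horizontal axis, log2 units) of every measured member of 59 gene lists (rows, with the number of measured members), ordered by the list median, which a black bar marks. The list of early STAT3 targets lies at the top with a median of 0.59 and the Atf4 list at the bottom with -0.84, beside -0.01 for all genes.

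Glucose metabolism fell as a group. Aldoc, a glycolytic aldolase, was at 10.35, 10.46 and 10.36 on the unstimulated arrays and 9.06 and 9.10 on the stimulated ones and fell by 1.31 ± 0.06 (SE). Of 16 glycolysis genes 15 fell (median -0.58), and of 16 hypoxia-responsive genes 10 fell and 2 rose (median -0.55). Vegfa, the vascular growth factor, was at 9.61, 9.77 and 9.68 on the unstimulated arrays and 8.48 and 8.62 on the stimulated ones. The exception of size was the transcription factor Bhlhe40, which hypoxia induces in many cells: it stood at 8.43, 8.70 and 9.13 on the unstimulated arrays and 9.97 and 10.14 on the stimulated ones and rose by 1.30 ± 0.15 (SE), against -0.23 in control EpiSCs (difference 1.53, limma adjusted p = 0.00055). Hif1a and its partner Arnt stood at 0.19 and -0.16 without a call. The thioredoxin inhibitor Txnip, a glucose-sensing arrestin-domain gene, fell by 1.71 and its relative Arrdc4 by 0.73. Control EpiSCs changed alike in direction, with -1.69 for Txnip and -1.16 for Aldoc. Of 70 nuclear-encoded respiratory chain genes 17 fell (24.3%, near the 22.9% of all genes) and 2 rose, with Ndufv3 lowest at -0.75. In control EpiSCs 21 of the 70 fell and 5 rose. Limma called 0 of 6 mitochondrially encoded transcripts, and 0 of them had an unadjusted p below 0.05.

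Sterol synthesis rose in several steps. Hsd17b7, a reductase of cholesterol synthesis, was at 9.91, 9.99 and 10.10 on the unstimulated arrays and 11.22 and 11.19 on the stimulated ones and rose by 1.21 ± 0.06 (SE). The demethylase Cyp51 rose by 0.72, the epoxidase Sqle by 0.59, the cyclase Lss by 0.53 and the sterol sensor Insig1 by 0.51. Of 19 members 7 rose and 1 fell (median 0.15), while in control EpiSCs 3 rose and 6 fell. The difference was called upward for 6, and for 3 without stimulated array 2. In control EpiSCs Hsd17b7 changed by 0.59, Cyp51 by 0.02, Lss by 0.02 and Insig1 by -0.01. With 1 array left out in turn, the difference was not called for Lss in 6 of 11 cases (limma adjusted p up to 0.125) and for Insig1 in 5 (up to 0.0804). The early mevalonate genes Idi1 (0.04) and Mvd (0.03) were not called. Acss2, which makes acetyl-CoA from acetate, fell by 0.61.

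Genes of ribosome assembly rose in number but by little. Pes1, a nucleolar factor of large subunit assembly, was at 9.67, 9.65 and 9.68 on the unstimulated arrays and 10.66 and 10.47 on the stimulated ones and rose by 0.90 ± 0.06 (SE). The RNA polymerase I subunit Polr1b rose by 0.84, the methyltransferase Nop2 by 0.69 and nucleolin, Ncl, by 0.54. In the nucleolar list 30 of 47 rose and 1 fell (median 0.28). Control EpiSCs gave 33 rises in that list. The difference between the lines was called by limma for 0 of 47, and 7 reached an unadjusted p below 0.05. The ribosomal protein genes themselves did not share this: of 53 measured, 3 rose, 5 fell and the median was -0.06, and the 3 rises were lost without stimulated array 2. Splicing factors rose in 19 of 43 cases and fell in 2, with a median of 0.16. The 2 falls became 0 without unstimulated array 1 or stimulated array 3, and 1 in 6 other cases with an array left out. The SR proteins Srsf6 (0.74), Srsf2 (0.67) and Srsf3 (0.66) led the rises. In control EpiSCs 23 of the 43 rose and 1 fell. Limma called the difference for 0 of them, and 1 reached an unadjusted p below 0.05. Among translation initiation factors 11 of 26 rose, Eif1a by 0.83 and Eif4g2 by 0.64, and 5 fell (3 without unstimulated array 1 or 2 or stimulated array 2), including the Atf4 target Eif4ebp1 (-0.64).

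Cell cycle genes were listed by phase. Of 23 genes of the G2 and M phases 12 fell and 1 rose (median -0.21), with the spindle proteins Prc1 (-0.67) and Nusap1 (-0.54) and the kinases Plk1 (-0.64) and Aurkb (-0.54) among them. Cdk1 (-0.12) and Top2a (0.11) were not called. In control EpiSCs 7 of the 23 fell and 2 rose. Limma called the difference for 0 of them, with an unadjusted p below 0.05 upward for 1 and downward for 6. Of 35 G1 and S phase genes 7 rose (20%) and 6 fell (17.1%), beside 18.4% and 22.9% of all genes, and the list median was -0.04. The cyclins Ccnd1 and Ccne1 and the inhibitor Cdkn1a rose by 0.86, 0.71 and 0.99, and the licensing factor Cdt1 fell by 0.64. Limma called 0 of 6 measured Mcm helicase genes, of which 1 had an unadjusted p below 0.05. Core histone genes fell in 10 of 52 cases (19.2%), below the 22.9% of all genes called lower. The 10 falls became 4 without stimulated array 2 and 6 without unstimulated array 1. In control EpiSCs 26 of the 52 fell.

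The p53 target list was split. Cdkn1a, Plk2 (0.76), Gadd45g (0.74) and Aen (0.38) were among 10 of 19 that rose, and the death gene Bbc3 (-0.95) and the sestrins Sesn1 (-0.92) and Sesn2 (-0.73) among 4 that fell (median 0.21). In control EpiSCs 11 of the 19 rose and 6 fell. In the BCL2 family the death activator Bcl2l11 rose by 0.97 and the survival gene Mcl1 by 0.47, whereas Bcl2l2 fell by 0.58. Bcl2 and Bcl2l1 stood at -0.02 and 0.03. In all 3 of 13 members rose (23.1%) and 4 fell (30.8%), beside 18.4% and 22.9% of all genes. In control EpiSCs 1 of the 13 rose and 4 fell.

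Zinc handling held the largest single rise. Slc30a3, which moves zinc into vesicles, was at 7.72, 7.71 and 7.91 on the unstimulated arrays and 11.04 and 10.97 on the stimulated ones and rose by 3.23 ± 0.06 (SE). It also rose by 1.90 in control EpiSCs (difference 1.33, limma adjusted p = 1.01e-06). The zinc exporter Slc30a1 rose by 1.41, metallothionein Mt1 by 0.90 and the metal-sensing factor Mtf1 by 0.66, with control changes of 1.23, 0.60 and 0.78. Of 17 zinc transporter and metallothionein genes 8 rose and 1 fell (median 0.19), and Slc30a3 was the 1 with a called difference from control.

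Lysosomal and autophagy genes fell in 12 of 27 cases and rose in 4 (median -0.14). Neu1, a lysosomal sialidase, fell by 1.21, the cholesterol exporter Npc1 by 0.96, and the autophagy genes Wipi1 and Gabarapl1 by 0.68 and 0.59. Map1lc3b (-0.05) and Lamp1 (-0.14) were not called. In control EpiSCs 11 of the 27 fell and 4 rose, and the difference was called upward for 2 and downward for 3. Genes of DNA methylation fell in 4 of 10 cases and rose in 1: Mbd2 fell by 0.67, Uhrf2 by 0.58 and Dnmt3b by 0.37, the last not called without unstimulated array 1 or stimulated array 3 (limma adjusted p of 0.0615 and 0.227), while Dnmt1 stood at -0.12 and Tet1 at 0.02. In the histone modifying list 7 of 35 rose (20%) and 7 fell (20%), near the 18.4% and 22.9% of all genes. The 7 falls became 4 without stimulated array 3. The methyltransferase subunit Setd1b stood at 0.73 and the demethylase Kdm4b at -0.75. The clock output gene Dbp fell by 1.12, and Per2 rose by 0.52.

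Signals that pattern the epiblast moved in both directions. Lefty1, a Nodal antagonist, was at 7.93, 7.97 and 11.34 on the unstimulated arrays and 12.03 and 12.13 on the stimulated ones. Unstimulated array 3 was thus close to the stimulated arrays, and the change of 3.00 ± 0.72 (SE) became 4.13 without it. Nodal, the ligand, was at 7.86, 7.75 and 9.07 on the unstimulated arrays and 9.86 and 9.89 on the stimulated ones and rose by 1.65 ± 0.27 (SE), or by 2.07 without that array. Of 17 Activin and Nodal pathway genes 7 rose and 5 fell, with falls in the receptor Acvr1b (-0.42) and the signal transducer Smad3 (-0.60). In the FGF list 6 of 12 rose and 2 fell (1 without unstimulated array 2 or stimulated array 2 or 3; median 0.21). The ligands Fgf8 (1.49), Fgf17 (0.88) and Fgf15 (0.67) rose, the FGF-binding protein Fgfbp3 fell by 0.98, and the receptors Fgfr1 (0.01) and Fgfr2 (-0.02) were not called. In the BMP list 7 of 13 rose, the receptor Bmpr2 by 0.84 and the inhibitory helix-loop-helix gene Id2 by 0.63. Homeobox genes parted: Otx2 rose by 0.48 and Meis1 by 0.47, and Irx3 fell by 0.69 and Irx2 by 0.50. Of 14 measured HOX, IRX, MEIS and OTX genes 6 rose and 3 fell (median 0.08), while in control EpiSCs 9 rose and 0 fell. The difference was called upward for 1 and downward for 4. Sox9 fell by 0.75 and Sox13 rose by 0.70.

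Some genes moved against their direction in control EpiSCs. In all 45 genes rose here and fell there, and 26 fell here and rose there, each with both changes and their difference called. The first count was 67 without unstimulated array 3 and 30 without stimulated array 2, and the second 17 without control stimulated array 2. The first group held Socs3, Irf1, the RNA-binding Zfp36 (1.10 here, -0.20 there), Xbp1, the growth factor binder Igfbp3 (0.69 and -0.46) and the uridine enzyme Upp1 (0.55 and -0.40). The second held Sox9 (-0.75 and 0.92), Irx3 (-0.69 and 0.63), the ornithine enzyme Oat (-0.49 and 0.23) and the ligand Wnt8a (-0.40 and 1.86).

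Calls depended on brightness. In the dim class of probes, with means of 7.28 to 7.76, 504 rose and 533 fell, which is 19.8% of the class. In the middle class, up to 8.83, 1065 rose and 1202 fell (43.3%), and in the bright class 1197 rose and 1335 fell (48.3%). Changes of at least 1.4-fold were called for 1.05%, 8.55% and 12.3% of the probes of the 3 classes. The median absolute change grew from 0.0713 to 0.156 and 0.189, while the median SD within groups grew less, from 0.0561 to 0.0725 and 0.0816. In 10 finer classes of brightness the called share climbed from 17.4% and 14.5% in the 2 dimmest to 52.0% in class 9 and was 40.1% in the brightest. At the dim end the sizes of rises and falls differed: 42 rises but 13 falls reached 1.4-fold, and the largest were 1.45 and -0.76. The lowest value on any array was 7.11 and the classes were made from these same arrays, so a dim probe had less room to fall than to rise. How far this limit set the sizes was not tested. Without stimulated array 3 the dim class held 673 called probes beside 1037 with it. No detection p-values were used here, so a dim probe's distance from background is unknown.

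**Figure D4:**
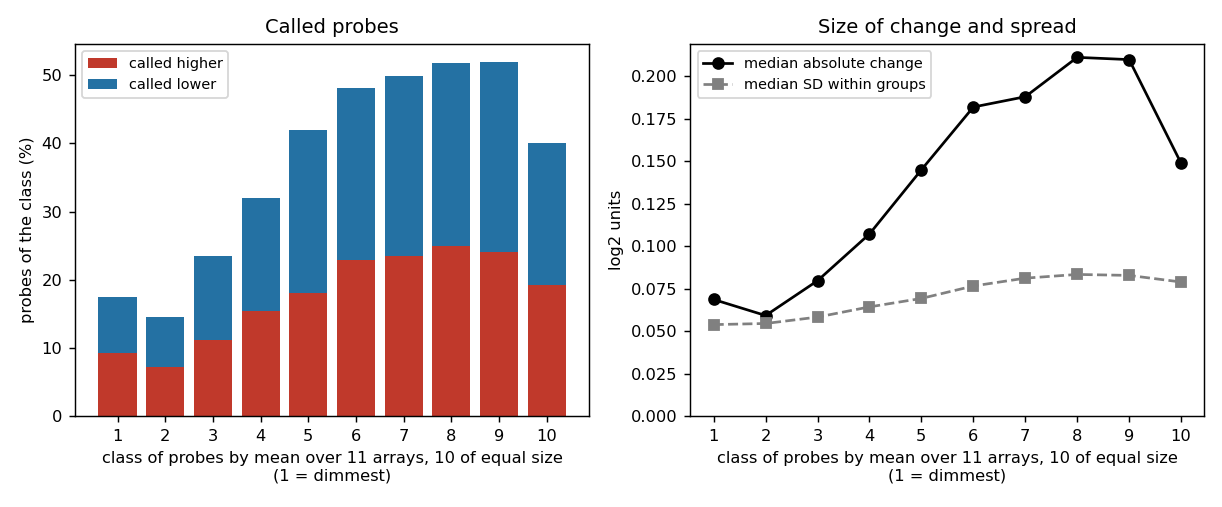
Left, share of probes (percent) called higher or lower after G-CSF in GY118F EpiSCs, in 10 classes of equal size by mean value over 11 arrays, from the dimmest (1) to the brightest (10). Right, median absolute change and median SD within groups (log2 units) in the same classes; the called share peaks at 52.0% in class 9.

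Among dim genes, with 1 probe per symbol, the largest rises were in transcription factor Fosl2 (1.19), the kinase Tec (0.89), the neuropeptide Npy (0.87), Tex19.1 (0.79), the opioid precursor Pdyn (0.78) and the ATP receptor P2rx5 (0.74). Fosl2, an AP-1 subunit, was at 7.43, 7.36 and 7.43 on the unstimulated arrays and 8.51 and 8.68 on the stimulated ones, so that the unstimulated arrays lay in the dim class and the stimulated ones above it. The largest falls there were in the carbonic anhydrase Car12 (-0.76), the neurotrophin receptor Ntrk2 (-0.72), Zc3h6 (-0.61), Rps23rg1 (-0.55), Dmrta2 (-0.54) and Jdp2 (-0.53).

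Probes of one gene mostly moved together where both were bright. A total of 3211 genes had at least 2 probes, which made 4510 pairs of the brightest probe with each other one. Both probes were called higher in 523 pairs and lower in 489, and they were called in opposite directions in 28. In 1440 pairs 1 probe was called, the brighter in 1071 and the dimmer in 369, and in 2030 neither was. Across pairs the changes correlated at r = 0.756, with 0.630, 0.814 and 0.882 where the dimmer probe lay in the dim, middle and bright class; pairs share arrays and genes, so these are descriptions. The difference in change between the probes was itself called in 594 pairs (13.2%), and in 508 of these the dimmer probe changed less. Pairs listed with the same transcript accession had a called difference in 427 of 3635 cases (11.7%), and pairs with different accessions in 167 of 875 (19.1%). Where the brighter probe was called with at least 1.4-fold, in 462 pairs, the dimmer rose with it in 190 and fell with it in 150, was called the opposite way in 2 and not called in 120. Without stimulated array 3, 653 pairs were called the same way beside 1012 with it, and 372 had a called difference. The count of opposite pairs was 12 without unstimulated array 2, 15 without stimulated array 2 and 14 without stimulated array 3.

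**Figure D5:**
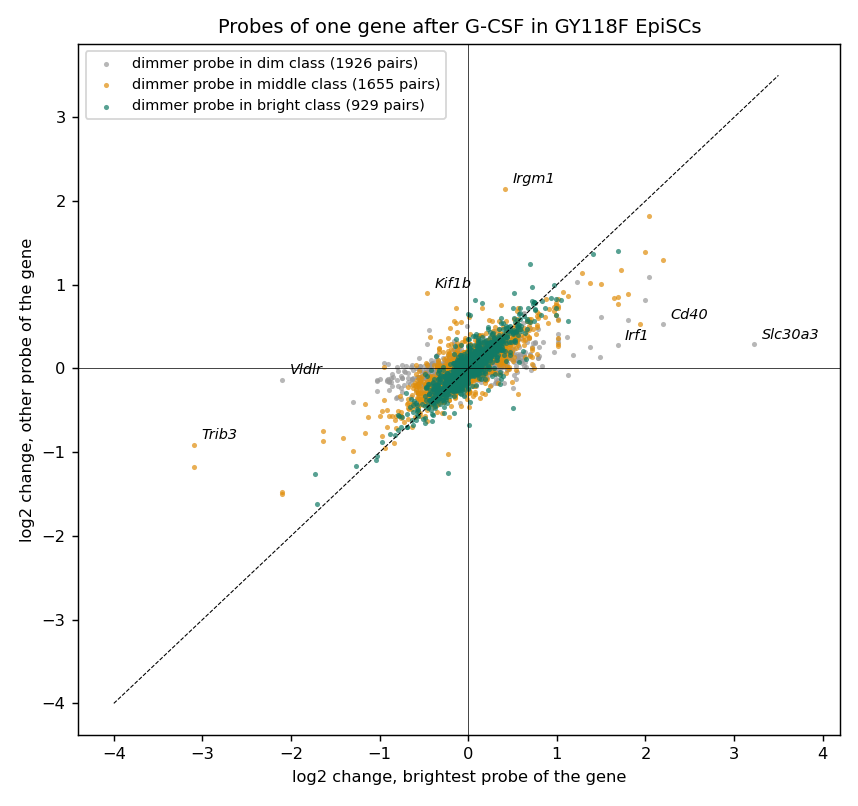
Change of the brightest probe (horizontal axis, log2 units) against that of another probe of the same gene (vertical axis) for 4510 pairs, coloured by the brightness class of the dimmer probe. Points of dim probes lie nearer to 0 than the dashed line of equality, as for Slc30a3 at 3.23 and 0.29, while Irgm1 and Kif1b lie above it.

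Many large gaps followed that pattern. Slc30a3 rose by 3.23 on its bright probe and by 0.29 on the other, whose mean of 7.34 lies near the bottom of the range. Vldlr fell by 2.10 and by 0.14, Irf1 rose by 1.69 and 0.28, and Fzd10, a WNT receptor, by 1.81 and 0.58. Fgf8 rose by 1.49 on its bright probe, whereas the dim one, of another transcript accession, stood at 0.13 without a call. For Trib3 the brightest probe fell by 3.09 and the others fell by 0.91 and 1.18. Txnip, bright on both probes, fell by 1.71 and 1.62, and Mthfd2 by 1.72 and 1.27.

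Irgm1, an immunity-related GTPase, went the other way. Its bright probe, with a mean of 13.16, rose by 0.42 (not called without stimulated array 3 (limma adjusted p = 0.0891)), and its dimmer probe, with a mean of 8.81 and the same accession, rose by 2.15 (limma adjusted p of the difference = 8.56e-07). In the list of interferon genes it is counted with the smaller value, beside a change of 0.42 on the bright probe in control EpiSCs. Kif1b, a kinesin motor of axonal transport, split by direction: its brightest probe fell by 0.47 and its others rose by 0.90 and 0.30, with accessions that differ from that of the brightest (limma adjusted p of the larger difference = 2.51e-07). Mat2b, which regulates methionine adenosyltransferase, fell by 0.45 and rose by 0.46, on probes of different accessions. Ncaph2, a condensin subunit, rose by 0.56 and fell by 0.31 on probes of the same accession. Which transcripts the probes of these genes detect was not tested.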

How the data were processed

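RNA preparation used a Qiagen RNeasy kit, and biotin was added by Illumina's TotalPrep-96 method, per the labels. The submitters' processing notes name lumi as the tool behind the deposited log2-scale values. The sources used here state neither its version nor whether the transformation was a plain log2 or variance-stabilizing. The sorted values of the deposited arrays differ by at most 0.00116, so they were quantile-normalized. All 11 arrays in 4 groups were fitted with limma 3.58.1 in R 4.3.3 (7 residual degrees of freedom, two-sided, Benjamini-Hochberg over 15718 probes, threshold 0.05), without a replicate block and without a filter. The number of arrays limits the precision. Probes were named through GEO's platform annotation: 13711 had 1 symbol, 5 several and 2002 none. Replicate numbers of the stimulated GY118F arrays (2 and 3) are those of the source names; their titles say 1 and 2.

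Gene lists and members were chosen with earlier results of these data known. Genes named were taken, though not all of them, from the 25 largest rises and falls, the 6 largest per brightness class, up to 5 called each way per list, and those with the largest probe differences or opposite changes in control cells; members given as not called, and Icam1, Cish, Isg15, Atf4, Phgdh and Ncl, were chosen after their values were seen. The script was tested on simulated data made with each probe's own spread.

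Promoters (250 bases before to 50 after the start, RefSeq, GRCm38.p6) were searched on both strands for 12 motifs: the STAT element TTCNNNGAA and its palindrome TTCCNGGAA (contained in it), the Atf4 element TTGCATCA, the hypoxia core ACGTG and the E-box CACGTG (which contains it), the cyclic AMP element TGACGTCA, the ETS site CCGGAAGT, the interferon element TTCNNTTTC, the sterol element TCACNCCAC, the AP-1 site TGANTCA, the Krüppel-like factor site CCACCC and the metal element TGCNCNC. Longer NF-κB, endoplasmic reticulum stress and interferon elements were also searched and are not described, and those described were chosen after their counts were seen. Alternatives tried were a replicate block (both numberings), only the GY118F arrays, 1 probe per gene, leaving out the dimmer 50% of probes, another quantile normalization, median centring, a floor, eBayes with trend and robust, array weights, other thresholds and leaving out each array.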

Additional observations from a re-analysis of the deposited data

Results flagged for a closer look

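The results in this part were set apart because the effect of G-CSF differed between GY118F EpiSCs and control EpiSCs by limma's test of the difference, adjusted over all 15718 probes. Values are the change in GY118F EpiSCs minus the change in control EpiSCs, in log2 units, for genes that the text names.

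In the receptor pathway and among its targets the difference was 3.18 for Socs3, 2.21 for Stat3, 0.76 for Socs2, 0.65 for Socs5, 0.54 for Cish, 1.29 for Zfp36, 1.26 for Fosl2, 1.69 for Klf5, 1.61 for Junb, 1.05 for Tfap2c, 0.87 for Fos, 0.84 for Icam1, 0.43 for Gadd45g and 0.35 for Bcl6. Among interferon-inducible and immune genes it was 2.17 for Irf1, 2.15 for Gbp2b, 1.93 for Gbp2, 0.83 for Gbp3, 1.35 for Igtp, 0.66 for Isg15, 0.49 for Usp18 and 0.57 for Psmb8. In the tumour necrosis factor receptor and NF-κB group it was 2.10 for Cd40, 0.95 for Tnfrsf12a, 0.47 for Tnfrsf1a, 0.45 for Rela and 0.29 for Nfkbia.

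Among signals and patterning genes it was 3.97 for Lefty1, 1.64 for Nodal, 1.46 for Fgf8, 0.49 for Fgf17, 1.22 for Fzd10, 0.39 for Otx2, -2.26 for Wnt8a, -1.67 for Sox9, -1.31 for Irx3, -1.12 for Fgfr2 and -0.57 for Dmrta2. In sterol synthesis it was 0.62 for Hsd17b7, 0.70 for Cyp51, 0.52 for Insig1 and 0.51 for Lss. For stress and amino acid genes it was 0.96 for Chac1, 0.55 for Trib3, 1.05 for Herpud1, 0.98 for Xbp1, 0.39 for Slc1a4 and -0.72 for Oat; Chac1, Trib3, Herpud1 and Slc1a4 fell in both lines and fell less in GY118F EpiSCs. For the remaining genes it was 1.33 for Slc30a3, 1.53 for Bhlhe40, 1.14 for Igfbp3, 0.95 for Upp1, 0.82 for Bcl2l11, 1.97 for Ccn2, 1.72 for Ngfr, 1.22 for En2, 1.18 for Timp1, 0.70 for Tshz1, 0.52 for Lor, 0.51 for Igf2bp1, 0.65 for Npy, 0.53 for Tec, 0.41 for Pdyn, 0.40 for Eif1a, -0.37 for Mbd2, -0.43 for Dbp, -0.44 for Cdt1, -0.49 for Gabarapl1 and -0.77 for Ntrk2.

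With 1 of the 11 arrays left out in turn, the call of the difference was lost for Gabarapl1 in 10 cases, for Lefty1 in 9, for Otx2 and Eif1a in 8, for Nfkbia and Ntrk2 in 7, for Lss in 6, for Insig1 in 5, for Nodal and Dmrta2 in 2 and for Npy, Pdyn and Tnfrsf1a in 1. With values raised to a floor at the 25th percentile it was lost for Bcl6 (0.005, limma adjusted p = 0.641) and for Socs2, Dmrta2, Eif1a, Gabarapl1, Insig1, Lefty1, Lss, Nodal, Ntrk2 and Otx2 (limma adjusted p of 0.063 to 0.141). With trend and robust moderation it was lost for Lefty1, Nodal and Ntrk2 (limma adjusted p of 0.163, 0.114 and 0.0881).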

How the results depend on the processing

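In the fit as described, 2766 probes were called higher and 3070 lower. Of the 5836 called probes, 5339 were also called with a replicate block by the numbers of the source names and 5622 with one by the numbers of the titles, none in the opposite direction; the block moved no count by over 1.5 times. Either block ended the call of the difference from control for Otx2 and Nfkbia, and the block by source names also for Lss, Eif1a and Gabarapl1 (limma adjusted p of 0.0517 to 0.0573). The deviations of same-numbered GY118F arrays correlated at -0.044 and 0.295 by the source names and at 0.379 and 0.044 by the titles. With 2 stimulated arrays the deviations from their mean are equal and opposite, so these values cannot show whether the numbers pair the samples.

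Counts that moved by over 1.5 times were these. Without the dimmer 50% of probes 1783 were called higher and 1977 lower, 1258 in the middle class, with 288 differences from control upward and 149 downward, 557 probe pairs called the same way, 12 opposite and 86 with a called difference. At a threshold of 0.01, 2023 were lower, 564 called in the dim class, 254 and 116 differences upward and downward, and 600, 6 and 306 pairs the same way, opposite and with a called difference. With a fold of at least 1.4 added, 596 were higher and 551 lower, 55, 448 and 644 called by class, 240 and 92 differences upward and downward, 164, 0 and 167 pairs in the same order, and 107 and 90 list members higher and lower. A floor at the 25th percentile left 568 called in the dim class, and a fit of the 5 GY118F arrays alone gave 11 opposite pairs. No direction reversed.

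With 1 array left out, the ranges were 2163 to 2845 probes higher, 2196 to 3104 lower, 310 to 577 differences upward (500 with all arrays) and 174 to 397 downward (268), 673 to 1036, 1707 to 2328 and 2019 to 2583 called by class, 653 to 1051 pairs the same way, 12 to 30 opposite and 372 to 630 with a called difference, and 251 to 314 list members higher and 204 to 267 lower. The cause of these moves was not tested, apart from fewer probes or a stricter call where the setting itself gives that. Signal over background was not available, so the dim class may hold probes without signal.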

Other observations

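Further genes with large changes lie outside the pathways described. The cornified envelope gene Lor rose by 2.74, the neurotrophin receptor Ngfr by 1.71, the zinc finger gene Tshz1 by 1.66 and the homeobox gene En2 by 1.64. Timp1, an inhibitor of matrix proteases and known STAT3 target, rose by 1.40, the intermediate filament gene Vim by 0.71 and the ephrin receptor Epha2 by 0.94, whereas the cadherin genes Cdh1 and Cdh3 stood at 0.05 and -0.08 without a call. Fjx1, a secreted kinase-like protein, rose by 1.73, and the growth factor gene Ccn2 fell by 0.56. The difference of Ccn2 from control was 1.97, so it fell less in GY118F EpiSCs than in control EpiSCs. The mRNA-binding gene Igf2bp1 rose by 0.99 and the receptor Igf1r fell by 0.55. The largest falls outside the lists were in the cell cycle regulator Rgcc (-1.85) and the deubiquitinase Otub2 (-1.64).

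Of the lists, NRF2 antioxidant genes rose in 4 of 21 cases and fell in 2, ephrins, semaphorins and netrins rose in 6 of 22 and fell in 6 (3 without unstimulated array 2 or stimulated array 2), and numbered zinc finger protein genes rose in 29 of 176 and fell in 25, beside 18.4% of all genes called higher and 22.9% called lower.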
